A study of Mus musculus with 2 samples.

Results

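The cytoplasmic ribosomal protein genes encode the protein parts of the ribosome that works in the cytosol. They were taken from the GENCODE M21 annotation of the mouse genome (mm10) by symbol: protein-coding genes named Rpl, Rplp or Rps, followed by digits and at most 1 of the letters a, l, x and y. The rule found 79 of the 21755 protein-coding genes annotated on the autosomes and the X chromosome, of which 49 encode proteins of the large subunit (Rpl and Rplp) and 30 of the small subunit (Rps). It used no measured value. Chromatin was measured by DNase-seq, in which the enzyme DNase I cuts DNA that is not protected by nucleosomes, in 2 biological replicates of whole embryos of the strain B6NCrl at 11 days. Each replicate is labelled as healthy tissue of pooled males and females. The replicates have separate biosample entries and share a donor entry, and there is no other genotype, treatment or age in the series, so no groups were compared. A whole embryo mixes all its cell types, and a site open in few cells cannot be told apart from a site weakly open in many.

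Each replicate came with a list of peaks, mostly 150 bp wide, and a list of hotspots, which are longer stretches of enriched cutting. Replicate 1 had 204697 peaks and 179603 hotspots, and replicate 2 had 231103 peaks and 197152 hotspots. A peak carries a deposited score, a whole number from 1 to 150 with a median of 45 in replicate 1 and 50 in replicate 2. No source used here gives its construction, so it served to rank peaks within a list, and scores are not read as multiples of signal. Of 12 known defining genes of neural tube, mesoderm, endoderm and red cells, 11 had a peak at their start in both replicates, all but Hba-a1 of red cells, where 70.3% of all protein-coding genes had one. These peaks ranged from scores of 134 in both replicates for Tubb3 to 23 and 26 for Hnf4a, near the bottom of all genes.

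Ribosomal proteins bind ribosomal RNA as it is made in the nucleolus, and the finished subunits join on mRNA in the cytosol. All are needed in similar numbers, and the mRNAs of most of them start with a cytosine followed by an unbroken run of pyrimidines, the terminal oligopyrimidine (TOP) tract, through which growth signals acting via mTOR and LARP1 control their translation. Several ribosomal protein genes carry snoRNAs, the guides of ribosomal RNA modification, in their introns. Mammalian genomes also hold many processed pseudogenes, copies of ribosomal protein mRNAs pasted back into the genome without their promoters.

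Part of these genes had a TOP tract at an annotated start. RefSeq promoter sequences (GRCm38.p6) were found for 59 of the 79 genes, with 71 annotated starts. Of these starts, 13 (18.3%), each in a different gene, had a C followed by at least 4 pyrimidines, against 469 of 21263 starts (2.21%) of all protein-coding genes. Of these 13, the following 11 are shown for the tract, and Rpl15 and Rpl28 are shown with the best-ranked promoters. Each sequence runs 5′ to 3′ on the strand of the gene, from 80 bases before to 20 bases into the transcript, with the longest run of C and T between 25 bases before and 20 bases after the start in capitals.
Rpl35, chr2:39005112-39005211, minus strand: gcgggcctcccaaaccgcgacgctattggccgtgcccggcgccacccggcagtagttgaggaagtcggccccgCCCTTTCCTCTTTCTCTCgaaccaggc
Rpl14, chr9:120571437-120571536, plus strand: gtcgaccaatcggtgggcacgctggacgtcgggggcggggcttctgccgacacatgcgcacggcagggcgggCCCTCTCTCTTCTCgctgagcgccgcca
Rpl35a, chr16:33056402-33056501, plus strand: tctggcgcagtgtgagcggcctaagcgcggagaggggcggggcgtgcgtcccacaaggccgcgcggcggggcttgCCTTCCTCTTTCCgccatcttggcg
Rps10, chr17:27635225-27635324, minus strand: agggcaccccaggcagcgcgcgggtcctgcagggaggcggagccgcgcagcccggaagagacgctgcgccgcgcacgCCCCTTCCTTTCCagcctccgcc
Rps18, chr17:33955646-33955745, minus strand: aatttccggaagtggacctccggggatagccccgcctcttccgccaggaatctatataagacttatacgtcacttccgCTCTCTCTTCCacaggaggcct
Rpl38, chr11:114668500-114668599, plus strand: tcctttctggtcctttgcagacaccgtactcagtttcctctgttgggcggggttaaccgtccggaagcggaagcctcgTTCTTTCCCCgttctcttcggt
Rplp2, chr7:141447571-141447670, plus strand: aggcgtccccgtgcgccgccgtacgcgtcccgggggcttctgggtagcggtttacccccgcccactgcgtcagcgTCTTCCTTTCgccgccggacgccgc
Rps15a, chr7:118116128-118116227, minus strand: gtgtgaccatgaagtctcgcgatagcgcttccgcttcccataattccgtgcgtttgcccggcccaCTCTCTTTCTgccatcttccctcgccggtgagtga
Rps6, chr4:86857348-86857447, minus strand: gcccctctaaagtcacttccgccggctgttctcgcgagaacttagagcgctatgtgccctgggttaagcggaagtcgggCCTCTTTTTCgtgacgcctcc
Rps27, chr3:90213629-90213728, minus strand: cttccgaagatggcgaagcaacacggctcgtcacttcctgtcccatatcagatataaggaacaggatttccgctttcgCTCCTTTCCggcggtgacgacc
Rps21, chr2:180257299-180257398, plus strand: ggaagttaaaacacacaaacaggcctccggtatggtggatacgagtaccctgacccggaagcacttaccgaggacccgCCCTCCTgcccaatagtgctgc
Rpl35 had the longest of these runs, 18 bases, followed by Rpl14 with 14 and by Rpl35a and Rps10 with 13 each. Rps18 had 11 bases, Rpl38, Rplp2, Rps15a and Rps6 had 10 each, Rps27 had 9 and Rps21 had 7. In Rps15a the longest run ended upstream of the start, and in the other 10 it crossed the start. Rps6 is the small subunit protein phosphorylated by S6 kinase downstream of mTOR, Rplp2 belongs to the stalk that recruits translation factors, and Rpl38 is known from mouse mutants with a changed axial skeleton.

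A looser measure, which need not begin with C or touch the start, was taken for all 79 genes around the reference transcription start site (TSS), the start of 1 principal GENCODE transcript per gene. The longest run of C and T within 25 bases of the reference TSS had a median of 7 bases in the 79 genes and 5 in all protein-coding genes. A run of at least 8 bases was found in 36 of 79 genes (45.6%), against 19.1% of all genes, with 25 of 49 in the large subunit (51.0%) and 11 of 30 in the small subunit (36.7%). Read on the opposite strand, such a run was found in 9 of 79 genes (11.4%), against 20.5% of all genes. The excess was thus in the transcribed orientation. Rpl34 and Rps2 had the longest runs, 20 bases each, followed by Rps24 with 19 and Rpl29 with 18. All 4 genes on the X chromosome had reference runs below 8 bases.

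A short pyrimidine motif, the letters CTTT with a C or T on each side, was searched within 50 bases of the reference TSS after the first values had been seen. It was present on the gene's strand in 28 of 79 genes (35.4%) and on the opposite strand in 10 (12.7%), while all protein-coding genes had 12.01% and 12.03%. The CpG ratio of a promoter is the number of CpG dinucleotides observed over that expected from its C and G content, and its quartiles over the 79 genes were 0.700 and 0.980. The 6315 protein-coding genes between these quartiles, called genes of like CpG ratio here, had this motif in 7.79% on their own strand and 7.14% on the opposite one. They were matched on that ratio alone: their median GC content was 64.3%, against 56% in the 79 genes and in all protein-coding genes. At the reference TSS itself, 11 of 79 genes (13.9%) had a C and 4 more pyrimidines, against 2.16% of all genes. Of the 13 genes with such a RefSeq start, 2 were among these 11, so that 22 of 79 genes (27.8%) had one in either annotation. The count of TOP starts therefore depends on which annotated start is read. Translation factors and other genes with TOP mRNAs, a list of 17 genes such as Eef1a1, Eef2 and Pabpc1, had a run of at least 8 bases in 10 (58.8%). The 78 mitochondrial ribosomal protein genes, whose proteins work in another ribosome and which are not known as TOP genes, had 16.7%, and the proteasome subunit genes had 17.9%.

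**Figure D1:**
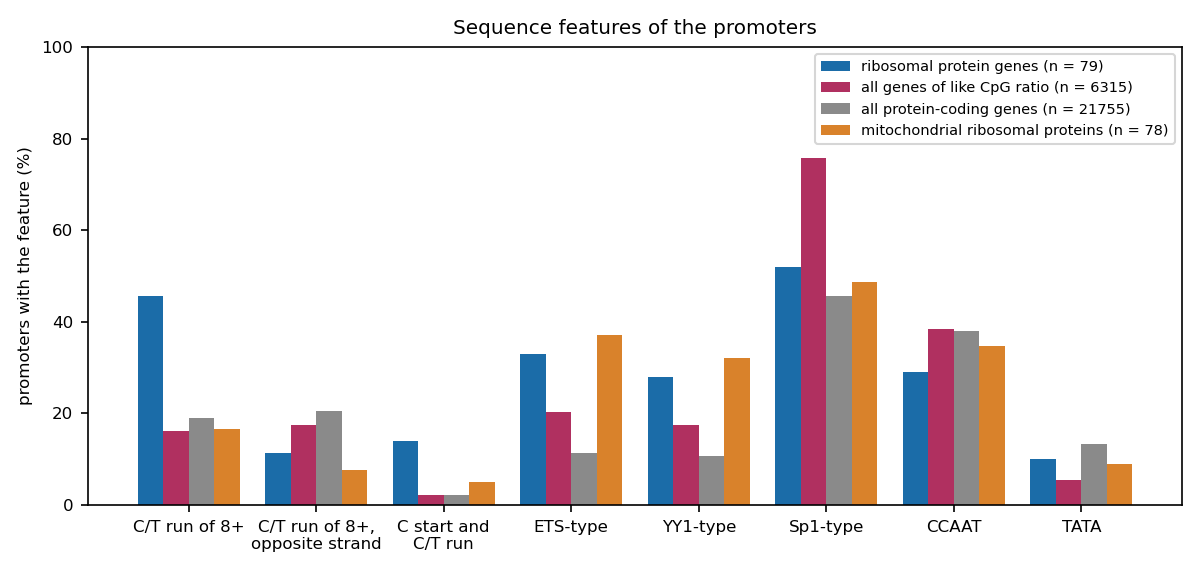
Share of promoters (%) with each sequence feature in the 79 ribosomal protein genes, in 6315 genes of like CpG ratio, in all 21755 protein-coding genes and in 78 mitochondrial ribosomal protein genes. The run of 8 or more C or T stands at 45.6% in the ribosomal protein genes on their own strand and at 11.4% on the opposite strand.

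Other promoter letters were searched on both strands from 250 bases before to 50 bases after the reference TSS. The ETS-type motif CCGGAAG, bound by factors such as GABPA, was present in 26 of 79 genes (32.9%), against 11.3% of all genes, 20.3% of genes of like CpG ratio and 37.2% of mitochondrial ribosomal protein genes. The YY1-type motif ATGGCG was present in 22 (27.8%), against 10.7% of all genes, 17.5% of genes of like CpG ratio and 32.1% of mitochondrial ribosomal protein genes. Both were found in 9 genes, among them Rpl11, Rpl27a, Rpl34 and Rpl38, and at least 1 of them in 39. These joint counts were not made for other genes. The Sp1-type motif GGGCGG was present in 41 genes (51.9%), close to the 45.6% of all genes and below the 75.7% of genes of like CpG ratio. CCAAT was present in 23 genes (29.1%), against 38.0% of all genes. The E-box CACGTG, which Myc and its relatives bind, was present in 10 genes (12.7%), against 7.82% of all genes and 11.4% of genes of like CpG ratio. The CREB-type motif TGACGTCA was present in Rpl13, Rpl18, Rpl26, Rpl27a, Rps29 and Rps9 (6 genes, 7.59%), against 2.47% of all genes and 3.85% of genes of like CpG ratio. The NRF1-type motif GCGCATGCG was present in Rpl10a and Rpl37a alone (2.53%), against 2.19% of all genes and 4.23% of genes of like CpG ratio. TATAAA was present in 8 genes (10.1%), against 13.2% of all genes. Between 40 and 20 bases before the start, on the gene's own strand, it was present in 1 gene, Rps2 (1.27%), against 2.28% of all genes. The ETS-type and YY1-type letters were thus about as frequent in both kinds of ribosomal protein gene, whereas the pyrimidine run was frequent in the cytoplasmic ones.

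A promoter peak was defined as a peak within 500 bp of any annotated TSS of the gene. It was present in both replicates in 76 of the 79 genes (96.2%), against 70.3% of all protein-coding genes. The count was 76 in each replicate alone. All 30 small subunit genes and 46 of 49 large subunit genes had one. A promoter hotspot was present in both replicates in the same number, 76 genes, against 70.6% of all genes. The hotspot value, a deposited −log10 of a q value, stops at a ceiling of 100, and 76 genes reached that ceiling in both replicates, against 65.3% of all genes. It could therefore not rank these genes. Nearly every gene of like CpG ratio had a promoter peak too: of these 6315 genes, 6222 (98.5%) had a promoter peak in both replicates. The presence of a peak at these promoters was thus at the level of CpG-rich promoters at large.

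The 3 genes without a promoter peak or hotspot in either replicate were Rpl10l, Rpl39l and Rpl3l. Rpl10l and Rpl39l are copies of the X-linked genes Rpl10 and Rpl39 known to be used in the male germ line, and Rpl3l is the copy of Rpl3 used in heart and skeletal muscle. The other gene with the suffix l, Rps27l, a copy of Rps27 known as a target of p53, had promoter peaks with scores of 129 and 134 in replicates 1 and 2. The RefSeq starts of these 4 genes follow, so that the 3 starts with no peak can be set beside that of Rps27l.
Rpl10l, chr12:66284382-66284481, minus strand: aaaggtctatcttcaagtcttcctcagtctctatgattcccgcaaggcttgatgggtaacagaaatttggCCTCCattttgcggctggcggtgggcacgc
Rpl39l, chr16:10170148-10170247, plus strand: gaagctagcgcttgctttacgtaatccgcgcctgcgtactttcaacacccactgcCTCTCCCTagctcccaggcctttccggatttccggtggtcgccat
Rpl3l, chr17:24727746-24727845, plus strand: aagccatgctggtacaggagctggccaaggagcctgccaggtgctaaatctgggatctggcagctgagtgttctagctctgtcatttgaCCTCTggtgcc
Rps27l, chr9:66946006-66946105, plus strand: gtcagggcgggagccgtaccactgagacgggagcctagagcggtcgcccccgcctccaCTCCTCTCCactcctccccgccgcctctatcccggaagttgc
The nearest peak to a start of Rpl10l had its midpoint 6170.5 bp away in replicate 1 and 6150.5 bp away in replicate 2, with scores of 22 and 40. For Rpl39l the nearest peaks were 22202.5 and 22042.5 bp away, with scores of 17 and 18. For Rpl3l the nearest peak was 3369.5 bp away in both replicates, with scores of 124 and 130. Rpl3l lies 5890 bp downstream of Rps2 on chromosome 17. The 4 parent genes all had promoter peaks, with scores of 123 and 117 for Rpl10, 116 and 119 for Rpl39, 136 and 144 for Rpl3, and 127 and 135 for Rps27. The CpG ratio of the promoter was 0.643 in Rpl10l, 0.836 in Rpl39l and 0.0893 in Rpl3l, against 0.767 in Rps27l. The ratio of Rpl3l was the lowest of the 79 genes. Rpl10l has 1 exon, as a copy of a spliced mRNA would, whereas Rpl3l has 10, as many as Rpl3.

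Ribosomal protein pseudogenes gave the comparison with copies that lack the promoter. The annotation holds 282 pseudogenes whose symbol is that of a ribosomal protein gene with the ending -ps, mostly followed by a number, derived from 58 parent symbols. A peak lay within 500 bp of the start in both replicates in 7 of them (2.48%), with 8 in replicate 1 and 10 in replicate 2. The count depended on the window: it was 1 within 200 bp and 16 within 1000 bp. Rpl29-ps2, a transcribed pseudogene whose start lies within 1 kb of a coding TSS, had the highest scores, 137 and 132. The other 6 were Rpl17-ps6 (45 and 44), Rpl21-ps7 (73 and 80), Rpl31-ps20 (49 and 61), Rpl7a-ps8 (39 and 49), Rpl9-ps3 (66 and 74) and Rps19-ps10 (71 and 75), with the scores of replicates 1 and 2 in brackets. The scores of these 6 all lay below the lowest of the coding genes, 105 and 107. Of the 274 pseudogenes with no coding TSS within 1 kb, 6 (2.19%) had a peak. The median CpG ratio around the pseudogene starts was 0.371, against 0.856 at the coding genes. A further 6 genes with a -ps symbol are annotated as protein-coding, and none had a promoter peak in either replicate. No source used here says how reads that match several copies were placed, and the part of such reads in the pseudogene counts was not tested.

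**Figure D2:**
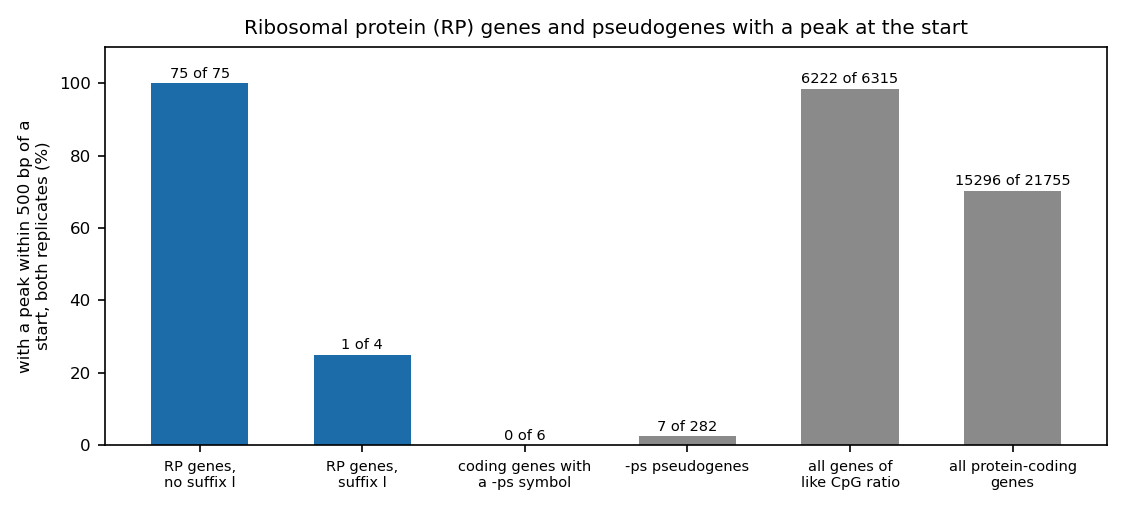
Share (%) of genes or pseudogenes with a peak within 500 bp of a start in both replicates, with the counts above the bars. The 75 ribosomal protein (RP) genes without the suffix l all had one, against 7 of 282 pseudogenes (1 within 200 bp and 16 within 1000 bp), 6222 of 6315 genes of like CpG ratio and 15296 of all 21755 protein-coding genes.

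Where a gene had several promoter peaks, the one with the highest score was taken as its best peak and ranked among the best peaks of all protein-coding genes of the same replicate, as a percentile. Of peaks with equal scores, the one at the lower chromosome coordinate was taken. The best scores of the 76 genes ran from 105 to 148 in replicate 1, with a median of 133.5, and from 107 to 147 in replicate 2, with a median of 136. All protein-coding genes with a promoter peak had medians of 125 and 130. In 51 of the 76 genes both scores lay above these medians, and in 16 both lay below. The same counts were not made for other genes, and genes of like CpG ratio had medians of 130 and 135. The percentile, averaged over both replicates, ran from 27.0 to 97.0 with a median of 69.2, and its quartiles were 48.8 and 81.8. The median was 70.9 in replicate 1 and 66.5 in replicate 2. All genes had a median of 51.5, and genes of like CpG ratio had 63.8. The 39 ribosomal protein genes within that same CpG range had 66.3. Large subunit genes had a median of 69.4 and small subunit genes 68.6. A percentile of at least 75 in both replicates was reached by 21 genes (26.6%), against 14.2% of all genes and 27.7% of genes of like CpG ratio. The ribosomal protein promoters thus ranked above the average gene and close to other CpG-rich promoters, over a wide range.

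**Figure D3:**
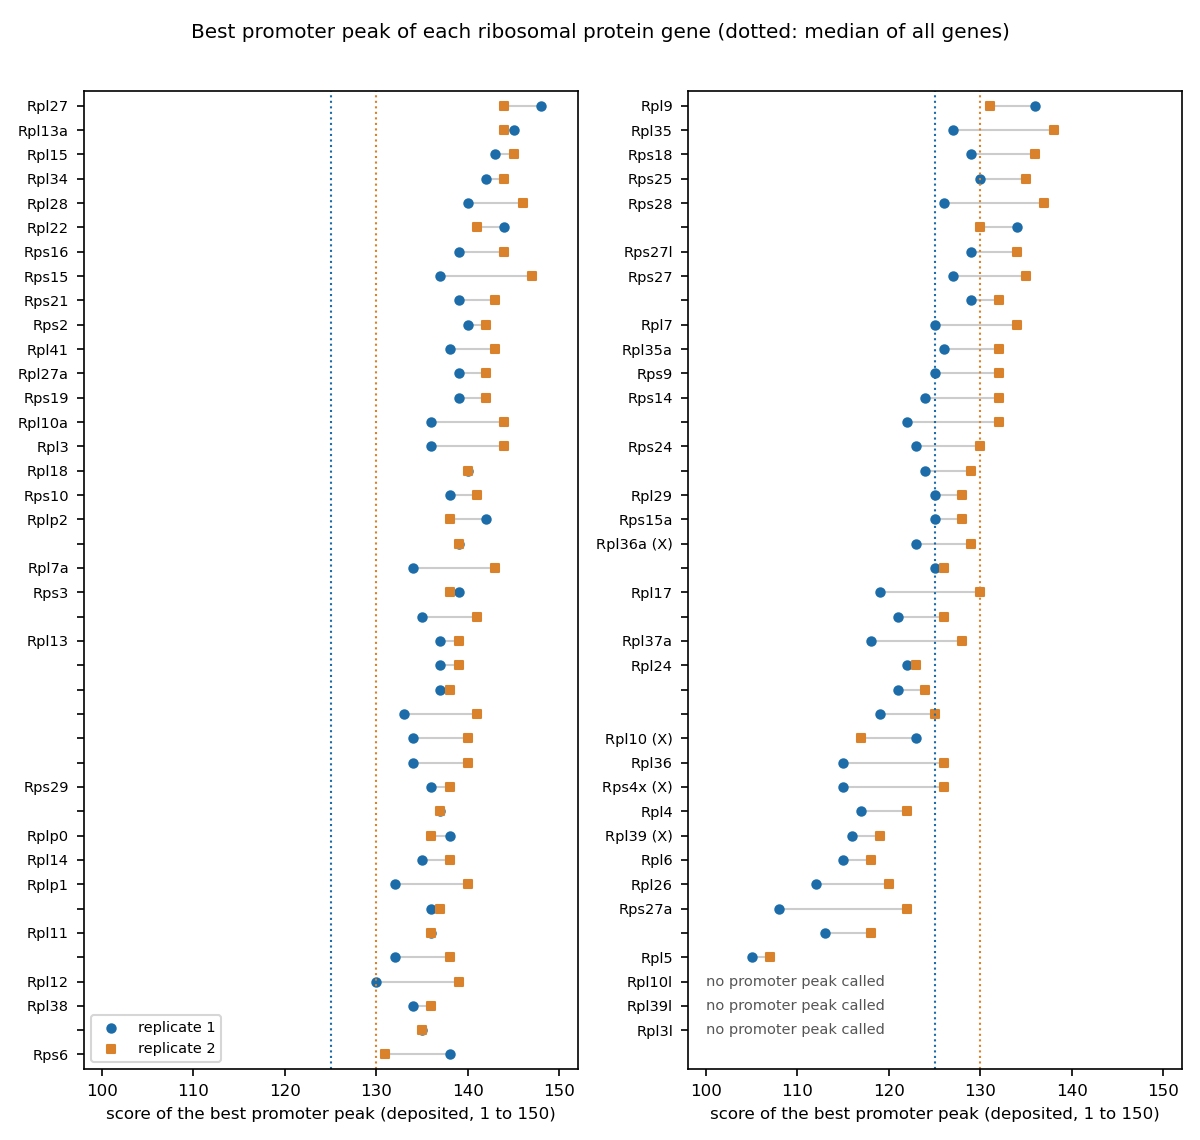
Deposited score of the best promoter peak of each of the 79 genes in replicate 1 (circles) and replicate 2 (squares), ordered by mean percentile, with the genes named in the text labelled and with the medians of all protein-coding genes as dotted lines. The scores run from Rpl27 (148 and 144) to Rpl5 (105 and 107), and 3 genes had no promoter peak.

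The best-ranked genes were Rpl27 with scores of 148 and 144 in replicates 1 and 2, Rpl13a with 145 and 144, Rpl15 with 143 and 145, Rpl34 with 142 and 144, and Rpl28 with 140 and 146. The first 4 were the genes in the top decile of both replicates (5.06% of the 79 genes, against 4.07% of all genes and 8.03% of genes of like CpG ratio). All encode proteins of the large subunit, and Rpl13a is also known as a translational silencer released from the ribosome in inflammation. The starts of the 5 genes are given for comparison of their layout.
Rpl27, chr11:101442165-101442264, plus strand: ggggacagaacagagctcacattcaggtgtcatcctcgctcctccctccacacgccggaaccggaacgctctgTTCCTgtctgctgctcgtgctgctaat
Rpl13a, chr7:45128726-45128825, minus strand: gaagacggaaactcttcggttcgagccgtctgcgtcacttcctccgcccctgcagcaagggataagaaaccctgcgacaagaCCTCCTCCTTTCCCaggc
Rpl15, chr14:18270967-18271066, minus strand: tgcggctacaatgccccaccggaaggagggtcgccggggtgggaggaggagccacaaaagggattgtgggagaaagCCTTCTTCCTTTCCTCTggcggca
Rpl34, chr3:130730379-130730478, minus strand: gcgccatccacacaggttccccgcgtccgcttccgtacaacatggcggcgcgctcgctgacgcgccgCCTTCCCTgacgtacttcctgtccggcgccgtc
Rpl28, chr7:4792885-4792984, plus strand: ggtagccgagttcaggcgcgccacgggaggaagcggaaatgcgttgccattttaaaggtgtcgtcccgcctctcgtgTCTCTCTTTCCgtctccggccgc
The runs in capitals are 5 bases in Rpl27, 14 in Rpl13a, 17 in Rpl15, 8 in Rpl34 and 11 in Rpl28. The midpoint of the best replicate 1 peak lay 25.5 bp downstream of the shown start in Rpl27, and at −205.5 bp in Rpl13a, −144.5 bp in Rpl15, −52.5 bp in Rpl34 and −94.5 bp in Rpl28, where minus means upstream. Around the reference TSS the longest runs were 8 bases in Rpl27, 7 in Rpl13a, 4 in Rpl15, 20 in Rpl34 and 3 in Rpl28. The run length of a gene thus depended on the start read. At either start the highest scores went with long and with short runs. The next 5 genes by rank were Rpl22 (144 and 141), Rps16 (139 and 144), Rps15 (137 and 147), Rps21 (139 and 143) and Rps2 (140 and 142).

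Among the lowest-ranked genes with a promoter peak were Rpl5 with scores of 105 and 107, Rps27a with 108 and 122, Rpl26 with 112 and 120, and Rpl6 with 115 and 118. Rpl5 is part of the particle that carries the small RNA of the large subunit and that also binds the p53 regulator Mdm2. Its partner in that particle, Rpl11, had 136 in both replicates. Rps27a is made as a fusion with ubiquitin. Rpl5 and Rpl11, whose proteins work side by side, thus had promoters far apart in rank. The RefSeq starts of 3 of these genes follow, and no entry was matched for Rps27a.
Rpl5, chr5:107900448-107900547, plus strand: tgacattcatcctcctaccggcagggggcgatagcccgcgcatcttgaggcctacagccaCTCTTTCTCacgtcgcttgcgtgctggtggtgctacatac
Rpl26, chr11:68901486-68901585, plus strand: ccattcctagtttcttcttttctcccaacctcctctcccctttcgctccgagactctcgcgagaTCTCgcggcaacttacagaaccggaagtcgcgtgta
Rpl6, chr5:121204421-121204520, plus strand: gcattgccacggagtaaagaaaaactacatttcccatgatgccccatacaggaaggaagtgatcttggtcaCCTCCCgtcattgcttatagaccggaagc
Rpl5 had a run of 9 bases that ends upstream of the shown start, Rpl26 had 4 bases and Rpl6 had 6. Around the reference TSS the longest runs were 9 bases in Rpl5, 14 in Rpl26 and 6 in Rpl6. The lowest 10 also included Rpl39 (116 and 119), Rpl4 (117 and 122), Rps4x (115 and 126), Rpl36 (115 and 126) and Rpl10 (123 and 117).

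Genes known for their place in the ribosome or for their mutants had a range of scores, while those of the stalk lay close together. In the stalk of the large subunit, Rplp0 had scores of 138 and 136, Rplp1 had 132 and 140, and Rplp2 had 142 and 138. All were above the medians of all genes, with mean percentiles of 75.1, 74.0 and 83.7. Rpl39, which lines the exit tunnel, was among the lowest, and Rpl41, the smallest ribosomal protein, had 138 and 143. Among small subunit genes, Rps19, the gene most often mutated in Diamond-Blackfan anaemia, had 139 and 142. Rps14, the gene of the 5q- syndrome, had 124 and 132, and Rps6 had 138 and 131. Rps3, which sits at the mRNA entry channel, had 139 and 138. Rpl38 had 134 and 136, and Rpl24, mutated in the Belly spot and tail mouse, had 122 and 123.

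Of the other lists, the 7 ribosomal protein genes outside the naming rule all had promoter peaks, and their median percentile was 81.5. They included Rpsa with scores of 141 and 143, Rpl36al with 142 and 143, Fau with 140 and 138 and Rps3a1 with 128 and 138. The 17 translation factor and TOP mRNA genes all had one too, with a median percentile of 79.7. Eif4b had 147 and 144, Eef1g had 142 and 148, and Rack1, whose protein sits on the small subunit, had 129 and 133. The 22 ribosome biogenesis genes had a median of 66.5, 38 of the 39 proteasome subunit genes had one with a median of 65.8, and the 78 mitochondrial ribosomal protein genes had 58.7. The quartiles of the TOP mRNA list were 71.6 and 85.2, against 48.8 and 81.8 for the ribosomal protein genes of the naming rule, so the lists overlapped.

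**Figure D4:**
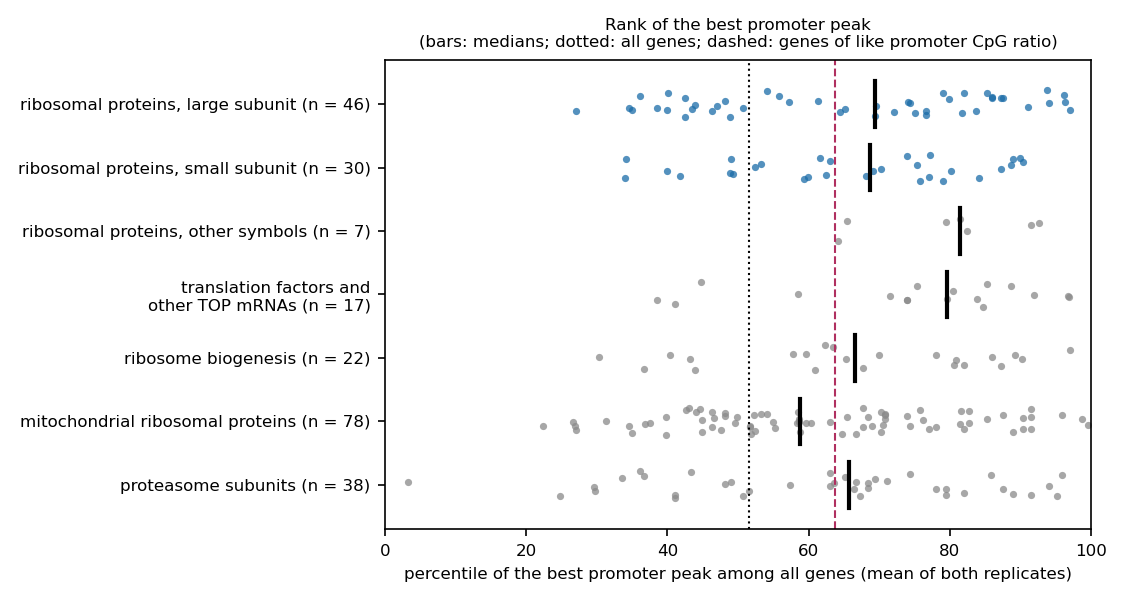
Percentile of the best promoter peak among all protein-coding genes, as the mean of both replicates, for each gene of 7 lists, with list medians as bars. The medians are 69.4 and 68.6 for large and small subunit genes and 58.7 for mitochondrial ribosomal proteins, and the lines mark all genes (51.5) and genes of like CpG ratio (63.8).

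The replicates gave similar ranks. The score was higher in replicate 2 in 61 of the 76 genes (80.3%), lower in 10 and equal in 5, and it was higher in 82.1% of all genes. This shift is one of the whole list. The scores of both replicates had a Pearson r of 0.882 and a Spearman rho of 0.855 over the 76 genes, which share libraries and are not independent, against 0.975 and 0.946 over 15296 genes with a wider range of scores. The best peaks of both replicates overlapped in 72 of 76 genes (94.7%), against 93.1% of all genes. The exceptions were Rpl7, Rps19, Rps24 and Rps25. For Rps24 this rested on a tie in replicate 1, where peaks at −3647.5 and −67.5 bp from the reference TSS both had 123. In replicate 2 its best peak was the one at −67.5 bp. The largest move in percentile was that of Rps6, by 31.2 points, for scores of 138 and 131. Ranks that differ by less than such a move are not separated by these data.

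The best peak lay just upstream of the start. Its midpoint had a median distance of −51 bp from the reference TSS in replicate 1 and −52 bp in replicate 2. All genes had −35.5 and −34.5 bp, and genes of like CpG ratio had −42.5 and −41.5 bp. The best peak lay upstream in 56 of the 76 genes (73.7%) in replicate 1 and in 57 in replicate 2. All genes had 65.9% and 65.2% upstream, and genes of like CpG ratio had 74.1% and 73.3%. The upstream share was thus close to that of genes of like CpG ratio. The best peak lay within 150 bp of the reference TSS in 62 (81.6%) and 63 (82.9%) of the 76 genes. All genes had 65.4% and 65.2%, and genes of like CpG ratio had 77.1% and 76.7%. Rps3 had its best peak at 7.5 bp and Rps6 at 1.5 bp in both replicates, over the start itself. In 6 genes the best peak lay over 300 bp from the reference TSS in both replicates, a count not made for all genes. For Rps10, the peaks near the reference TSS had scores of 53 and 55, while the best peak, with 138 and 141, lay 1338.5 bp downstream and 86.5 bp from another annotated start of the gene. This second start is the RefSeq start printed above with the 13-base run. The best peak also lay within 500 bp of an annotated start of the read-through gene RPS10-NUDT3. For Rpl18 the best peak, with 140 in both replicates, lay at −2740.5 bp, near a far annotated start of the gene and near Sphk2. The peak 20.5 bp upstream of its reference TSS had 135 and 134. The other 4 were Rpl10 at −501.5 bp, Rpl4 at −444.5 bp, Rps15a at −573.5 bp and Rpl35 at 433.5 and 413.5 bp. Rpl10 was among them in replicate 2 by a tie, since its peak at −141.5 bp had the same score of 117. In replicate 1 its peaks had 123 at −501.5 bp and 120 at −121.5 bp.

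**Figure D5:**
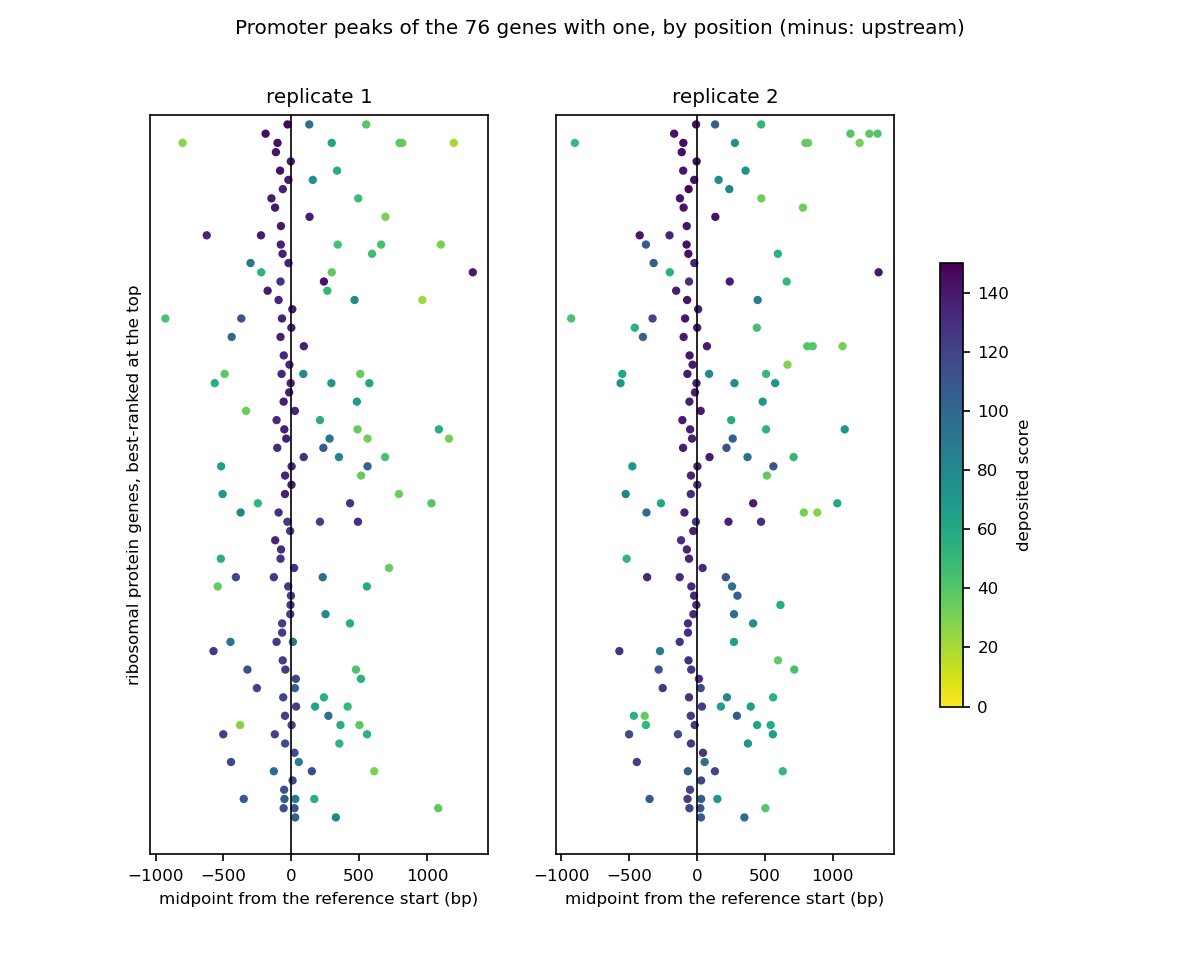
Midpoint of every promoter peak relative to the reference TSS (bp, minus is upstream) in replicates 1 and 2, with 1 row per gene in order of rank and the deposited score as colour. Dark points line up just upstream of the start. Beyond 1500 bp, 7 of 169 peaks in replicate 1 and 8 of 177 in replicate 2 are not drawn.

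Most of these genes had more than 1 promoter peak. Peaks were counted at any annotated start, so the counts do not describe a single start. The genes had a median of 6 starts, against 3 for all genes and 5 for genes of like CpG ratio. Rps14, for example, counted peaks at −27525.5 and −26545.5 bp from its reference TSS in replicate 1. At least 2 promoter peaks in both replicates were found in 48 of 79 genes (60.8%), against 43.8% of all genes and 63.1% of genes of like CpG ratio. At least 3 were found in 22 genes (27.8%), against 19.3% of all genes and 26.4% of genes of like CpG ratio. Exactly 1 was found in 14 genes, such as Rpl34, Rpl28 and Rps6, a count not made for all genes. Rpl15 had the most, 6 in each replicate, of which 2 lay within 500 bp of its reference TSS. Its best peak, at −101.5 bp, had scores of 143 and 145, and the others lay between 21 and 74. Rpl27 had peaks of 148, 96 and 40 in replicate 1 and 144, 103 and 51 in replicate 2, in order downstream. Rps25 had 3 peaks of near equal score, 122, 123 and 130 in replicate 1 and 124, 135 and 130 in replicate 2, from its start to about 491.5 bp downstream. Which of the 3 was best differed between the replicates. The hotspot around the best peak had a median width of 904 bp in replicate 1 and 989.5 bp in replicate 2, against 1105 and 1285 bp for all genes. Genes of like CpG ratio had 1220 and 1402 bp and mitochondrial ribosomal protein genes 912.5 and 1076 bp. The hotspots of the ribosomal protein promoters were thus narrower than those of the average gene with a hotspot.

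A promoter shared with another gene was found for 13 of the 79 genes (16.5%), against 10.6% of all protein-coding genes, each with the start of a coding gene on the opposite strand within 1 kb. Rpl15 lay 107 bp from Nkiras1, Rpl18 69 bp from Sphk2, Rpl7a 87 bp from Med22, Rpl9 53 bp from Lias, Rps18 135 bp from Vps52, Rps27 44 bp from Rab13, Rps25 33 bp from Trappc4 and Rps28 10 bp from Ndufa7. The starts of Rpl12 and Lrsam1 overlapped by 33 bp, and those of Rpl35 and Arpc5l by 276 bp. The other pairs were Rps27a with Clhc1 (90 bp), Rpl35a with Iqcg (235 bp) and Rpl4 with Zwilch (271 bp). In these promoters a peak cannot be assigned to 1 of the 2 genes. At least 2 promoter peaks in both replicates were found in 12 of the 13 (92.3%), Rps28 being the exception, against 62.8% of the 2316 protein-coding genes with such a partner and 54.5% of the 66 other ribosomal protein genes. The median percentile was 63.0 in the 13 genes and 69.3 in all genes with such a partner.

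snoRNA genes lay within 28 of the 79 genes. Hosts were not counted among all protein-coding genes, so these counts have no background share beside them. Rpl4 held 5 and Rpl13a held 4 (Snord32a, Snord33, Snord34 and Snord35a), and 8 genes held at least 3. The 28 host genes had a median percentile of 76.02, and the 48 of the 51 others that had a promoter peak had 63.7. The split was chosen after values had been seen. Hosts were found at both ends of the ranking: Rpl13a had scores of 145 and 144, Rpl17 had 119 and 130, Rpl4 had 117 and 122, and Rpl5 with 3 snoRNAs had 105 and 107.

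The genes were short, with a median length of 3289 bp against 17414 bp for all genes, and they had a median of 6 annotated starts against 3. Distal peaks are those over 1 kb from any coding TSS, counted where they were shared by both replicates and lay nearer to the gene's start than to that of any other coding gene. The stretch of DNA so assigned had a median of 22.3 kb against 46.9 kb for all genes. The median number of distal peaks was 2 in these genes and in all genes, and 3 in genes of like CpG ratio. Per 100 kb the median density was 6.32, against 4.12 for all genes and 5.18 for genes of like CpG ratio. No distal peak was assigned to 21 of the 79 genes (26.6%), against 29.6% of all genes. Rps24 had the most, 59 in 434 kb, followed by Rpl38 with 39 in 304 kb, Rplp1 with 37 in 287 kb and Rpl14 with 35 in 195 kb. Assignment by distance does not show which gene a distal peak acts on. The genes lay on 19 chromosomes, with 14 on chromosome 7.

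The 4 genes on the X chromosome ranked low. Rpl36a had scores of 123 and 129, Rpl10 had 123 and 117, Rps4x had 115 and 126, and Rpl39 had 116 and 119. Their median percentile was 39.98, against 69.9 for the 72 autosomal ones with a promoter peak. All protein-coding genes on X showed a like gap, with a median percentile of 30.9 against 52.8 on the autosomes. A percentile of at least 75 in both replicates was reached by 1 of 948 genes on X (0.105%) and by 3082 of 20807 autosomal genes (14.8%). The low rank of the 4 genes was thus one they shared with their chromosome. The median CpG ratio was lower on X too, 0.389 against 0.568 on the autosomes over all genes. For the ribosomal protein genes it was 0.691 on X and 0.880 on the autosomes. The part of the CpG ratio in the ranks on X was not tested. The chromosomes were compared after the values had been seen. The embryos were pooled males and females, and the part of X chromosome number in these scores was not tested. The CpG ratio had a Spearman rho of 0.0543 with the percentile over the 76 genes and of 0.477 over all genes with a promoter peak, as descriptions over genes that share 2 libraries.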

How the data were processed

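DNase-seq peaks and hotspots of 2 replicates were used as deposited. Per the text deposited with each replicate, its lists rest on its own filtered alignments to mm10, with no pooling. The sources used here name neither the alignment and calling programs nor the treatment of reads with several matches. The authors' peaks carry a score from 1 to 150 of unstated construction. The authors' hotspots carry the −log10 of a q value, from 1.30 to a ceiling of 100. Depth is unknown because no file holds counts of reads.

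Peaks on chromosomes 1 to 19 and X lay within the lengths of the GRCm38 reference. Peaks and hotspots were joined to GENCODE M21 starts within 500 bp with Python 3.11.15, numpy 2.4.6, pandas 2.3.3 and pysam 0.24.0, and the join was tested on simulated intervals. Percentiles are ranks among the best promoter peaks of 1 replicate. The genes and lists were chosen with earlier results of these data known. The genes named by rule are those without a peak, the 10 highest and the 10 lowest, the 5 with most snoRNAs, those with a divergent partner and 8 with 3 or more peaks. Some genes that the rule names are not reported here. Others are named for their role or were picked after their values were seen. There were no groups to compare, so no test was made. Alternatives were windows of 200 and 1000 bp, midpoints, the better-scoring 50% of each list, single starts and each replicate alone.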

Additional observations from a re-analysis of the deposited data

How the results depend on the processing

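The count of 76 genes with a promoter peak in both replicates was 76 with windows of 200 and 1000 bp, by midpoint, at the reference TSS alone, in each replicate and with the better-scoring 50% of peaks. With the 5'-most TSS alone it was 72, since Rpl17, Rpl3, Rps14 and Rps2 had no peak there, and the share of all genes was 65.2%. The median percentile of 69.2 lay between 66.5 and 70.9 over the alternatives run, including 2 chosen after seeing the data: the reference TSS alone (68.8) and autosomal genes alone (69.0). The count of 7 pseudogenes with a peak in both replicates was 1 with a window of 200 bp and 16 with 1000 bp, and 8 and 10 in single replicates. The median distance of the best peak was −18 bp from the 5'-most TSS, and −52 to −51 bp from the reference TSS with either replicate left out. No paired analysis was possible because there is 1 group. With 2 replicates and no read counts, depth and counting error could not be given.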
